A study of Arabidopsis thaliana with 4 samples.

Results

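Plates TA39 to TA51 are 13 consecutive plates of probes on an Arabidopsis thaliana tiling array, along which the log ratio from chromatin immunoprecipitation of histone H3 trimethylated at lysine 4 (H3K4me3) lay under the array's median almost without a break. The members are all wells of these plates that had a value, 1192 of the 21691 probes with a value. The plates had been picked as low from their own medians in both ChIP replicates. Their level is therefore given as a description, with no test, and supports nothing.

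Arabidopsis seedlings of the Col-0 accession, 10 days old, were grown in liquid medium in long days without treatment. DNA precipitated with an antibody to H3K4me3 was hybridised on 2-colour arrays against input DNA from the same preparation. The 2 ChIP replicates, called I and II, each had a pair of dye-swapped arrays, 4 arrays in all, and no other genotype or treatment was compared. The arrays of a pair held the same value at each of the 21691 probes, so each pair counts as 1 replicate and n = 2 throughout. Whether replicates I and II came from separate cultures is not given in the labels, so the spread between them may be technical.

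H3K4me3 is laid down by methyltransferases of the Trithorax family (the ATX proteins in plants) as genes are transcribed, and it gathers over the 5′ ends of active genes. It is scarce over silent transposons and over the heterochromatin around centromeres, where histone H3 methylated at lysine 9 and cytosine methylation prevail. In a tiling profile an active gene is usually seen as a short peak over neighbouring probes. The IDs are not paired with genes or genome positions in the table used here, so no probe was placed in the genome and no sequence is shown.

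Values are the authors' log ratios, called log units because the sources used here do not name the log base. From each replicate its median over all probes was subtracted. The direction of the ratio, IP over input or input over IP, is not named either. "Low" and "high" mean under and over the array's median, and the name low-H3K4me3 stretch holds only if the ratio is IP over input. An ID gives the set (TA), the plate, the row of 12 wells (A to H) and the well in the row. ID order runs along the rows and then to the next plate of 96 wells.

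The stretch had a median of -0.76 log units, at -0.84 in I and -0.68 in II, against 0.05 in the rest of the series. Its values were also packed more closely. The interquartile range was 0.51 log units in the stretch and 1.32 in the rest of the series, and the 95th percentile was 0.19 against 2.59. The 5th percentile was -1.27 in the stretch and -0.98 in the rest. The 25th percentile was -0.99 in the stretch and -0.44 in the rest. Both replicates were below 0 at 997 of the 1192 probes (83.6%), where 40.5% of all probes were.

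The mean of the replicates was 1 log unit or more at 22 probes of the stretch (1.85%), where 21.7% of all 21691 probes reached it. Both replicates were at least 1 at 19 probes, where 18.8% of all probes were. A mean of -1 or less was found at 287 probes (24.1%), against 5.67% of all probes. In the limma fit over all probes, with the mean of the replicates tested against 0 and a Benjamini-Hochberg adjusted p under 0.05, 32 members were called above the median and 754 below it. Over all probes 27.8% were called above and 19.7% below. The same contrast chose the plates, so nothing is read from these counts.

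**Figure D1:**
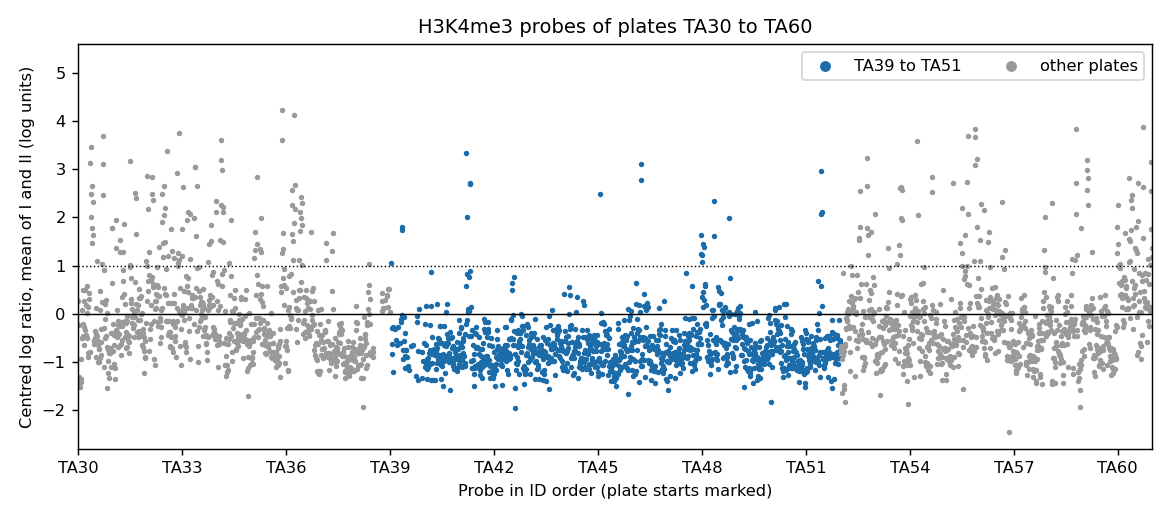
Centred log ratio (mean of replicates I and II, in log units) of each probe with a value in plates TA30 to TA60, in ID order, with TA39 to TA51 in blue and the other plates in grey. The dotted line marks 1 log unit. The blue probes form a band around -0.76 with 22 probes at or over the dotted line, and the gaps at TA38 and TA39 are wells without a value.

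The level did not slope along the stretch. The plate medians, in plate order from TA39 to TA51, were -0.63, -0.85, -0.73, -0.82, -0.74, -0.74, -0.85, -0.71, -0.75, -0.53, -0.78, -0.82 and -0.80 log units. They stayed within 0.32 log units of each other, with TA48 the highest and TA45 the lowest. A straight line through them changed by -0.01 log units over the whole stretch, and their Spearman correlation with plate number was -0.10 (13 plates, a description). The fitted change was 0.08 in I and -0.10 in II, so its sign differed between replicates. TA39, with only 42 wells with a value, weighed on this line. Over TA40 to TA51 the change was 0.05 log units, at 0.10 in I and -0.02 in II. Lines through the plate means and the upper quartiles changed by 0.00 and 0.02 log units over the stretch.

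Replicate I was the flatter of the replicates. Its plate medians lay between -0.94 and -0.57 log units, and those of replicate II between -0.87 and -0.41. The median of replicate I was under that of replicate II on 12 of the 13 plates, with a median difference (I minus II) of -0.14 log units. TA45 was the exception, at -0.87 in both replicates. The SD of the plate medians was 0.09 log units and that of the difference between replicates 0.10. Across the 13 plates the replicate medians were correlated (Pearson 0.668, Spearman 0.401), given as a description. TA48 stood out in both, with -0.57 in I and -0.41 in II, each the highest of the 13. It therefore weighed on the Pearson correlation, which was not computed without TA48.

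**Figure D2:**
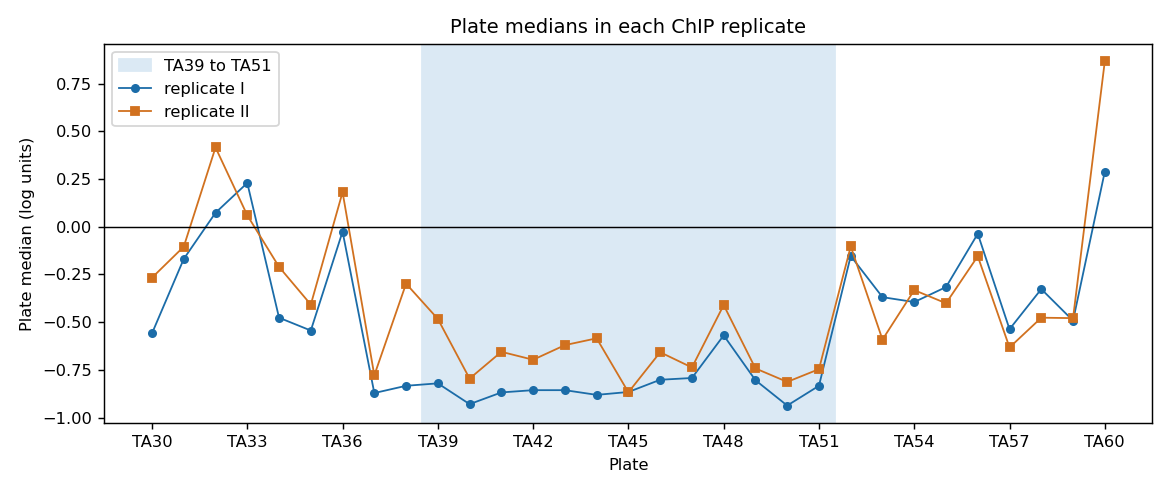
Median centred log ratio (log units) of each plate from TA30 to TA60, for replicate I (circles) and replicate II (squares). The shaded plates TA39 to TA51 run level, between -0.94 and -0.41, and TA60, the last plate drawn, lies at 0.29 in I and 0.87 in II.

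The limits of the stretch are those of a rule on plates, which took plates with a median under -0.3 in both replicates. Other plates met it too, among them TA35, TA37 and TA53, so it does not by itself set the stretch apart. TA48 was the member nearest to that limit. TA38, just outside, had -0.83 in I and -0.298 in II and so missed it in replicate II alone. TA37 lay as low as the stretch, with -0.87 and -0.78. By rows of 12 wells, rows B and D of TA36 had medians of 1.58 and 1.42 log units, and its last row, H, had -0.78. Single rows as low also lay further back, such as TA35F at -0.93 and TA34H at -0.78. Between TA37 and TA39 the level was broken: the last rows of TA38, G and H, with 6 values each, had medians of 0.19 and 0.37. Low rows were thus present before TA39, without an unbroken run into it.

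At the upper end the change did not fall at the plate limit either. The 4 rows E to H of TA51 had medians of -0.93, -0.87, -0.84 and -0.70 log units. The first row of TA52 was still at -0.82, and the second was at -0.20 and the third at 0.14. Low rows recurred after that, with -0.56 in TA52F, -0.86 in TA53A, -0.81 in TA53B and -0.97 in TA53H, so the end was not a single step. At the plate limit itself, TA51H12 had -0.74 in I and -0.36 in II, and TA52A01 had -1.05 and -0.39. At the lower limit, TA38H12 had -0.12 and 0.20, and TA39A03, the first well of TA39 with a value, had 0.49 and 1.62.

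Within the stretch, low values were nearly continuous at the scale of a row. Of its 104 rows, 102 had a median below 0 and 87 had one under -0.5. The exceptions were TA41C at 0.09 and TA48A at 0.52 log units. Row TA48A was high in both replicates (0.56 and 0.61), and TA41C was at -0.13 in I and 0.31 in II.

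The 22 high probes formed 13 islands, meaning runs of consecutive IDs with a mean of at least 1. Of these islands 6 held 1 probe, 5 held 2 and 2 held 3. None held 4 or more, whereas in the rest of sets TA, TB and TC 329 of 1953 islands did, up to 12 probes long. In the stretch this hung on 1 well, TA47H12, whose mean of 0.36 split TA47H10 to TA47H11 from TA48A01 to TA48A03. Joined across 1 ID, the stretch had 12 islands, with these runs in a single island. There was 1 island for every 91.7 probes with a value in the stretch and 1 for every 10.3 in the rest. The islands were few and short. Their probes had a median of 2.00 log units, against 1.92 for the high probes of the rest of those sets. The highest was 3.35 in the stretch and 6.37 in the rest of those sets. The limit of 1 that defines an island bounds both medians from below, so their likeness is not read as a result.

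Plate TA41 held 3 islands, among them the highest. TA41B07, the highest probe of the stretch, had 3.13 log units in I and 3.57 in II. The means before it climbed from -1.09 at TA41B04 to -0.42 at TA41B05 and -0.20 at TA41B06, so most of the rise came in the last step. After it, TA41B08 had a mean of 0.57 and TA41B09 of 0.82, and TA41B10 formed the next island with 1.92 and 2.11. The third island of this group was the pair TA41C06, with 2.28 and 3.09, and TA41C07, with 2.59 and 2.86. Beyond it the mean dropped to 0.15 at TA41C08 and -0.97 at TA41C09. The 3 islands thus lay close together, separated by 2 and 7 wells.

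The second highest island was a pair in TA46. TA46B11 had 2.53 log units in I and 3.02 in II, and TA46B12 had 2.81 and 3.41. The probe before the pair, TA46B10, had a mean of 0.05, and the one after it, TA46C01, had -1.09. In TA51, the last island of the stretch held TA51D07 with 3.12 and 2.83, TA51D08 with 2.09 and 2.04, and TA51D09 with 2.31 and 1.92. Replicate I was the higher at all 3 probes of this island, and replicate II at both probes of the TA46 pair. Around it, TA51D06 had a mean of 0.58 and TA51D10 of 0.17. TA45A07 stood alone, with 2.00 in I and 2.97 in II between neighbours at -0.62 and 0.02.

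**Figure D3:**
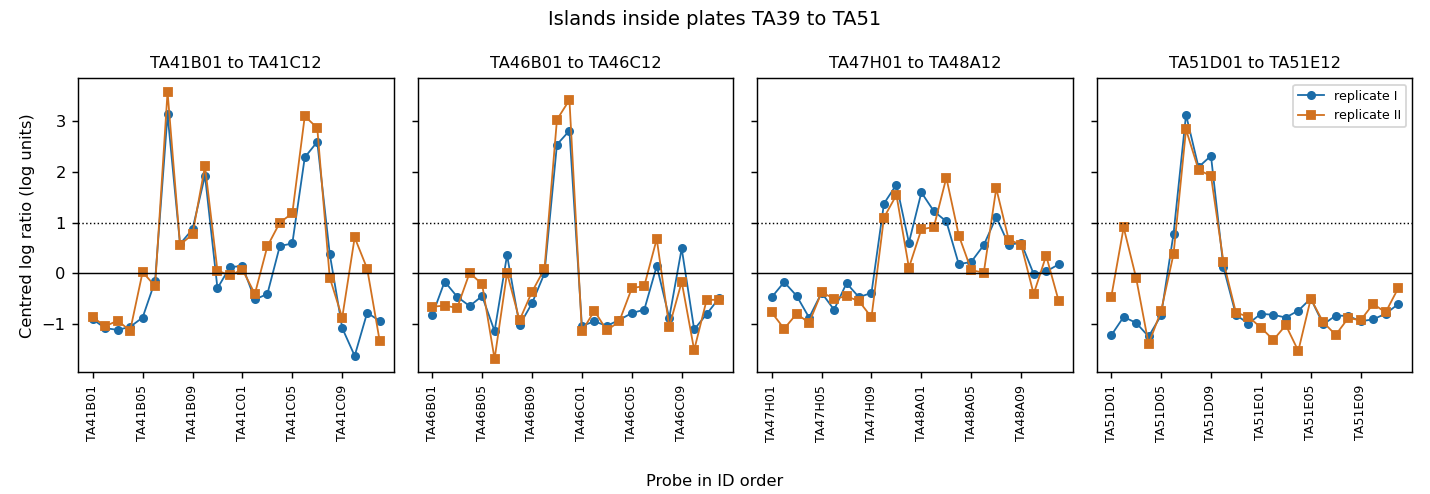
Centred log ratios (log units) of replicate I (circles) and replicate II (squares) along 24 consecutive wells around islands in TA41, TA46, TA47 to TA48 and TA51. The dotted line marks 1 log unit. TA41B07, TA46B12 and TA51D07 peak near or over 3 in both replicates, and the rise across TA47H10 to TA48A07 is lower and broken by wells under 1.

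Plate TA48 held more high probes than any other plate of the stretch, 7 of the 22. A lower rise, broken by wells under 1, began at the end of TA47, crossed the plate limit and ended in the first row of TA48. TA47H10 had 1.37 log units in I and 1.10 in II, and TA47H11 had 1.75 and 1.54. After TA47H12, with a mean of 0.36, TA48A01 had 1.59 and 0.87, TA48A02 had 1.22 and 0.91, and TA48A03 had 1.02 and 1.88. TA48A07 followed with 1.10 and 1.67. No probe of this rise had a mean over 1.64, so it was lower than the islands of TA41, TA46 and TA51.

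Further along TA48, TA48C09 had 1.36 log units in I and 1.89 in II, and TA48C10 had 1.95 and 2.74. TA48G05 was a single high probe, with 1.82 and 2.14, and TA48G06 after it had a mean of -1.20. The interquartile range of TA48 was 0.91 log units, the widest of the 13 plates, where TA43 had the narrowest at 0.36. Without TA48, 15 of 1097 probes (1.37%) reached a mean of 1.

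The islands of TA39 stood among missing wells. TA39C09 had 1.94 log units in I and 1.52 in II, and TA39C10 had 1.64 and 1.98. TA39A03 had 0.49 and 1.62, and its mean of 1.06 rested on replicate II. The wells on both sides of TA39A03, and TA39C08 before the pair, had no value, so the length of these islands is not known. Nearest to the limit, TA39A03 and TA48A02 lay just over it at 1.06 and 1.07. TA41C05 and TA40B05 lay just under it at 0.88 and 0.86.

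A well next to an island is under 1 by definition, which fixes part of the drop. One well away from an island, the 23 values had a median of 0.08 log units, and 9 of them were below 0. A well between islands can count for each of them, as TA47H12 did here. At 3 wells the median of 26 values was -0.27, and at 6 wells that of 24 values was -0.54. These values include some of neighbouring islands, 4 of the 26 at a distance of 3 wells, and at that distance also TA38H12, outside the stretch. By the sixth well the median was still above the -0.76 of the stretch.

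Between the islands lay long intervals without a high probe. The longest ran from TA41C08 to TA45A06, 359 consecutive wells with a median of -0.78 log units and no mean over 0.77. Another ran from TA48G06 to TA51D06 over 253 wells, also with a median of -0.78. In sets TA, TB and TC only the run of probes from TC13C05 to TC22B11 was longer than the first of these, with 468 probes, and it spans wells without a value. Plates TA40, TA42, TA43, TA44, TA49 and TA50 had no probe at 1 or more. The highest mean of plate TA43 was 0.08, and that of TA49 was 0.16.

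The lowest probes of the stretch were spread over 5 plates. TA42E11 had -1.64 log units in I and -2.28 in II, and TA50A01 had -1.84 and -1.80. They were followed by TA45G12 with -1.46 and -1.86, TA40F10 with -1.55 and -1.63, and TA47A04 with -1.22 and -1.93. None of them was close to the size of the strongest islands, and all 5 were below -1 in both replicates.

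The correlation of the replicates was higher with the islands included than without them, while the size of their disagreement was the same. Across the 1192 probes of the stretch, which share 2 ChIP preparations and are not independent, the Pearson correlation of I and II was 0.720 and the Spearman correlation 0.557. In the rest of the series they were 0.882 and 0.825. Without the 22 high probes the Pearson correlation in the stretch was 0.550, and the SD of I minus II stayed at 0.47 log units. The size of the disagreement was no larger than in the rest, with an SD of I minus II of 0.47 log units over all probes of the stretch and 0.56 in the rest. The values themselves were spread less, with an SD of 0.54 in I and 0.67 in II, against 1.07 and 1.19 in the rest. These correlations are descriptions, and a narrow range of values lowers a correlation by construction.

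Disagreement of at least 1 log unit ran mostly one way, in the stretch as over all probes. Replicate II was higher by at least 1 log unit at 49 probes of the stretch (4.11%), where 4.72% of all probes were, and replicate I at 3 probes (0.252%), where 1.60% were. Replicate I was below 0 at 47 of the 49, and at 91.9% of all probes of the stretch. The largest gaps were at TA47E04, with -0.74 in I and 2.44 in II, and TA47F08, with -0.82 and 1.98. TA41C10, TA43F06 and TA48F05 also differed by at least 2. These probes are isolated points to the upper left in the plot of the replicates. A value of at least 1 was found at 8 probes in replicate II alone, at 2 in replicate I alone and at 19 in both. Over all 21691 probes, 4784 reached 1 in I, 4974 in II and 4068 in both, so such values were scarcer in the stretch in every class. The share with replicate II higher by 1 was 5.32% of 809 probes in TA39 to TA47 and 1.57% of 383 in TA48 to TA51. The split after TA47, the plate with the largest gaps, was not set in advance, and no change along the stretch is read from it.

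**Figure D4:**
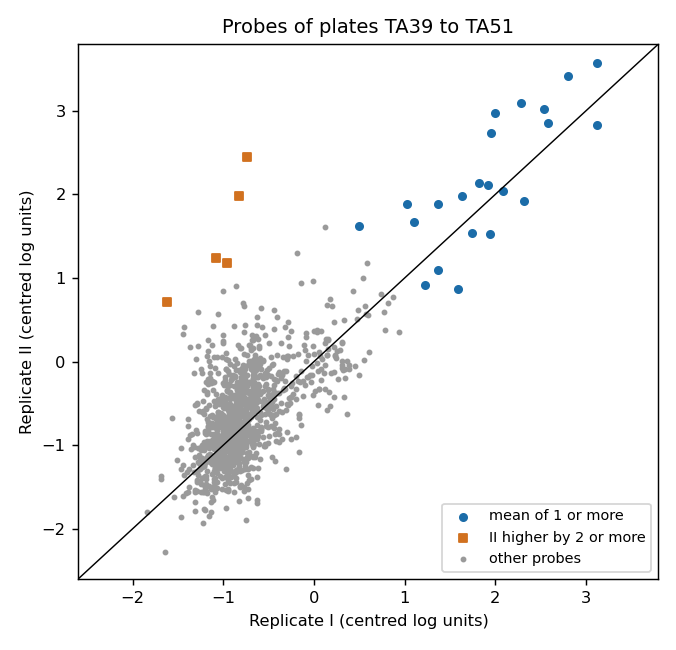
Replicate II against replicate I (centred log units) for the 1192 probes of plates TA39 to TA51, with the line of equal values. The 22 probes with a mean of 1 or more (blue) follow the line, and the 5 probes with replicate II higher by 2 or more (squares) lie far above it.

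Likeness of neighbouring probes was lower in value in the stretch, and this was not tested. The Pearson correlation of a probe with the next well was 0.482 over 1168 pairs in the stretch and 0.620 over 19962 pairs in the rest of sets TA, TB and TC. In the stretch it was 0.524 in I and 0.394 in II. Without the high probes it was 0.319 over 1136 pairs. In the other low stretches, TC17 to TC30 and TA21 to TA29, the correlation was 0.535 and 0.644 with all probes included. Pairs share probes, a narrow range of values lowers this correlation by construction, and the value is a description.

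Of the 1248 wells of the stretch, 56 had no value, and 54 of these belonged to plate TA39. For those 54 the table used here had no row, and TA39 kept 42 wells. Plate TA38, just before the stretch, kept 62 of its 96 wells. In the other 12 plates only TA46F07 and TA48E04 lacked a value. All but these 2 missing wells thus lay in the first plate of the stretch.

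In plates TA52 to TA60 the values were higher again, though not back to the level of the whole array. In plate order, their medians were -0.13, -0.47, -0.39, -0.44, -0.08, -0.57, -0.36, -0.49 and 0.56 log units. On 8 of the 9 plates the median was above that of every plate of the stretch. The exception was TA57 at -0.57, which lay below TA48. Only TA60 was above 0, at 0.29 in I and 0.87 in II. TA53, TA54, TA55, TA57, TA58 and TA59 were also under the limit of -0.3 in both replicates, with TA57 the lowest at -0.54 in I and -0.63 in II. TA52, TA56 and TA60 were not. The stretch had 22 high probes among 1192 (1.85%), and TA52 to TA60 had 95 among 863 (11.0%), in 42 islands of which 9 held 4 probes or more.

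Set beside the other low stretches, TA39 to TA51 was closer in level and evenness to TC17 to TC30 than to TA21 to TA29. The medians were -0.76 log units in TA39 to TA51, -0.71 in TC17 to TC30 and -0.59 in TA21 to TA29, and the interquartile ranges 0.51, 0.53 and 0.77. All 3 were picked as low, so these values describe them. Their islands differed in height and length. The highest probe had 3.35 in TA39 to TA51 and 2.02 in TC17 to TC30, where all 8 islands held a single probe. In TA21 to TA29 the highest was 3.58, and 5 of its 24 islands held 4 probes. Plates TA30 to TA38, between the stretches of set TA, had a median of -0.28 and 14.2% of 822 probes at 1 or more.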

How the data were processed

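The deposited value table gives 1 log ratio per array and probe, entered here as log2 although the base is not given. The sources used here do not name the authors' normalisation, centring or direction. Scanner intensities and a probe map were not used here, which leaves signal over background unknown, and precision is limited by having 2 replicates. As deposited, the log ratios had medians of -1.91 (I) and -0.90 (II). Of 21800 probes, 109 had no value. Arrays of a dye-swap pair were identical and were taken as 1 replicate. Each replicate was centred on its median, and the mean of both was used. limma 3.58.1 in R 4.3.3 (lmFit and eBayes, two-sided, Benjamini-Hochberg over 21691 probes) was fitted to all probes; the other values came from Python 3.11.15 with pandas 2.3.3 and scipy 1.17.1. The limma step and the search for runs were tested on simulated data. Named probes were all island probes, the 5 lowest, those nearest to 1 and those at the edges. The probes with replicate II higher by at least 2 log units, and the wells beside islands, were named after their values were seen. The plates, limits and lists were chosen with earlier results of these data known. Alternatives covered centring, scale, single replicates, plate limits and thresholds.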

Additional observations from a re-analysis of the deposited data

How the results depend on the processing

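No paired analysis was possible because the design holds a single group. Centring set most of the values. With centring on the mode, the median of the stretch was -0.54 log units, that of TA52 to TA60 was -0.075, and 86 probes lay at -1 or less. Without centring, which places 0 over both medians, these were -2.17, -1.70 and 1147, the stretch had 7 high probes in 5 islands, TA52 to TA60 had 29 high probes, limma called 6 members above 0, and TA39A03 (-0.35), TA47H10 (-0.17), TA48A01 (-0.18), TA48A02 (-0.34) and TA48A07 (-0.017) turned negative. A limit of 0.5 gave 39 high probes in 22 islands, a limit of -1.5 left 10 low probes, and a limma adjusted p under 0.01 left 483 members below the median, each by its construction. With plates TA38 and TA52 added, there were 33 high probes, the line through the plate medians changed by 0.012 per plate, the correlation of the replicates was 0.756, 50 members were called above the median by limma, and 90 wells lacked a value. Without TA39, 2 wells did (2 also in TA40 to TA50). With single replicates, the stretch had 21 to 27 high probes in 12 to 19 islands, and the median of TA52 to TA60 was -0.31 to -0.24. Under all other alternatives run, counts for these results stayed within 1.5 times of those reported and values moved by less than the spread between replicates (for the correlation of replicates, its 95% interval). That interval takes the probes as independent, which they are not. The level and the slope of the stretch could hardly move past a spread taken between the same replicates when either was left out. Of the 27 island and lowest probes, 8 moved by more than the spread of their replicates with centring on the mode, and none when the replicates were scaled. With a single replicate none can, by construction. Leaving out plate TA48 was added after seeing the data.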
